A study of Mus musculus with 6 samples.

Results

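The comparison described here is that of the lower of 2 doses of CH5424802 with vehicle in NCI-H2228 tumours, and it uses 4 of the 6 arrays of the series. NCI-H2228 is an established human lung adenocarcinoma line that carries an EML4-ALK fusion, and CH5424802, later named alectinib, is an oral inhibitor of the ALK kinase. The cells were grown under the skin of SCID mice, which lack mature B and T lymphocytes but keep other host cells. All tumours were taken 6 h after 1 of 3 treatments, each with 2 arrays: vehicle, CH5424802 at 4 mg/kg or CH5424802 at 20 mg/kg. The arrays were chosen by the dose in their labels. The 20 mg/kg arrays enter the text for the shared estimate of the spread and as a reference beside the 4 mg/kg values. The labels give the organism as mouse, the host, whereas the probe sets are for human transcripts. They do not say whether 2 arrays of a group came from separate mice, so p-values here reflect nothing beyond array-to-array spread, which can be technical in origin. In whole tumours, fewer cells of a type and less RNA per cell cannot be told apart.

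An ALK fusion keeps the kinase active and drives the RAS-MAPK, PI3K-AKT and JAK-STAT3 pathways. MAPK signalling is read out by short-lived feedback genes such as DUSP6 and the Sprouty genes, AKT holds FOXO transcription factors out of the nucleus, and STAT3 induces acute phase genes and its own inhibitor SOCS3. The hypoxia response is run by HIF transcription factors, which induce glucose transporters, glycolytic enzymes and angiogenic factors and which growth factor signalling can also raise. The comparison asks which of these programmes had already moved at the low dose.

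Each gene was represented by its brightest probe set, that is, the one with the highest mean over all arrays among those assigned to that gene alone. A mean log2 intensity of at least 4 was required, which left 10271 genes. A gene was called when its adjusted p from limma, a linear model fitted over all genes, was under 0.05. Because 2 arrays a group give the test little to work with, genes were also described by the agreement of arrays: both 4 mg/kg arrays on 1 side of both vehicle arrays, with the nearest pair at least 0.5 log2 apart. All changes below are log2 of 4 mg/kg minus vehicle on group means (n = 2 arrays each), unless another scale is named.

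Of 14 lung adenocarcinoma markers, 11 were bright enough to be tested. NKX2-1, the lineage factor of lung epithelium, lay between 2990 and 3273 in the 4 compared arrays, and NAPSA, SLC34A2, EPCAM and MUC1 were brighter still. Both 4 mg/kg arrays lay below both vehicle arrays in 5 of the 11, beside 14.8% of all tested genes. These were NAPSA, SFTPB, SLC34A2, KRT18 (-0.36) and MUC1. SFTPB read 407 and 639 with vehicle and 338 and 376 at 4 mg/kg. In 1, EPCAM (0.58), they lay above, beside 22.8% of all tested genes. The list median was -0.05. SFTPC, SFTPD and FOXA2 were at or within 1 log2 of the lowest value on the array in all 6 arrays. Of 8 endothelial markers 6 were at that level, as were 5 of 8 leukocyte markers, PTPRC and CD163 among them. The probe sets are for human transcripts, and how far they read those of mouse host cells was not tested. Endothelial, leukocyte and fibroblast marker values here therefore do not measure how many host cells were present. The summed fibroblast marker intensity was 37610 and 40487 with vehicle and 38377 and 37199 at 4 mg/kg, while LUM, PDGFRB, PDGFRA and THY1 were at or within 1 log2 of the lowest value. Most of that sum was COL1A1, at 33390 and 35344 with vehicle and 34030 and 32317 at 4 mg/kg. In 2 of the 6 tested fibroblast markers, FAP (-0.63) and ACTA2 (-0.35), both 4 mg/kg arrays lay below both vehicle arrays. That held for 14.8% of all tested genes, and no fibroblast marker lay above. The other 4 overlapped, with COL1A2 at 0.23, COL3A1 at 0.17, DCN at 0.00 and COL1A1 at -0.05. The median of the list was -0.03. The median log2 intensity of the tested genes was 8.563 and 8.586 with vehicle and 8.591 and 8.755 at 4 mg/kg, so replicate 2 at 4 mg/kg was the brightest array. The control probe set for the 5′ part of 18S ribosomal RNA read 1713 and 4058 with vehicle but 489 and 374 at 4 mg/kg. The part of these array differences in the results was not tested.

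Between 4 mg/kg and vehicle, 6 of 10271 genes were called (0.0584%). KLHL24, C5orf34 and ERAP2 rose (0.0292% called higher), and HK2, PLAUR and ANGPTL4 fell (0.0292% called lower). Without adjustment, 1745 genes (17.0%) had a p under 0.05, of which 1256 (12.2%) were higher and 489 (4.76%) lower. For scale, 20 mg/kg against vehicle gave 445 called genes (4.33%), 232 of them higher (2.26%), and 20 against 4 mg/kg gave 38, 13 of them higher (0.127%). All 6 called genes shared an adjusted p of 0.0485 in limma, just inside the threshold.

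KLHL24, a Kelch-like substrate adaptor of a cullin-3 ubiquitin ligase, had an intensity of 697 and 721 with vehicle, 1803 and 1778 at 4 mg/kg, then 4857 and 5304 at 20 mg/kg. The 3 groups were wide apart and in dose order. Its log2 change at 4 mg/kg was 1.34 (SE 0.05), and it rose by a further 1.50 from 4 to 20 mg/kg (limma, adjusted p = 0.0259). Its other probe sets were uneven, with changes of 0.06, 0.59, 2.0 and 0.00.

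HK2, hexokinase 2, which catalyses the first step of glycolysis, read 1670 and 1644 with vehicle, 853 on both 4 mg/kg arrays, and 351 and 332 at 20 mg/kg. It fell by 0.96 (SE 0.04) at 4 mg/kg and by a further 1.32 from 4 to 20 mg/kg (limma, adjusted p = 0.0211). Among the 6 genes, KLHL24 and HK2 were those that also passed the test between the doses.

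PLAUR, the urokinase receptor, which focuses plasmin formation on the cell surface, read 3346 and 3355 with vehicle and 1697 and 1587 at 4 mg/kg, a change of -1.03 (SE 0.04). Its 20 mg/kg arrays read 1279 and 1253, which was not separated from 4 mg/kg by the test (limma, adjusted p = 0.0914). Its other probe sets changed by -0.59 and -0.04. ANGPTL4, a secreted inhibitor of lipoprotein lipase, was dim, at 27.8 and 26.3 with vehicle, 12.7 on both 4 mg/kg arrays and 12.1 on both 20 mg/kg arrays. Its change was -1.09 (SE 0.03) at 4 mg/kg, beside -1.16 at 20 mg/kg.

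ERAP2, an aminopeptidase that trims peptides for MHC class I, read 2395 on both vehicle arrays, 4235 and 4451 at 4 mg/kg, then 4322 and 4348 at 20 mg/kg. The log2 change was 0.86 (SE 0.03) at 4 mg/kg and 0.86 at 20 mg/kg, and other probe sets of the gene changed by 0.09, 0.50 and -0.28. C5orf34 read 61.9 and 62.7 with vehicle, 121 and 126 at 4 mg/kg and 97 on both 20 mg/kg arrays, a change of 0.99 (SE 0.03) at the low dose. Its difference between the doses of -0.35 did not pass the test (limma, adjusted p = 0.0674).

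**Figure D1:**
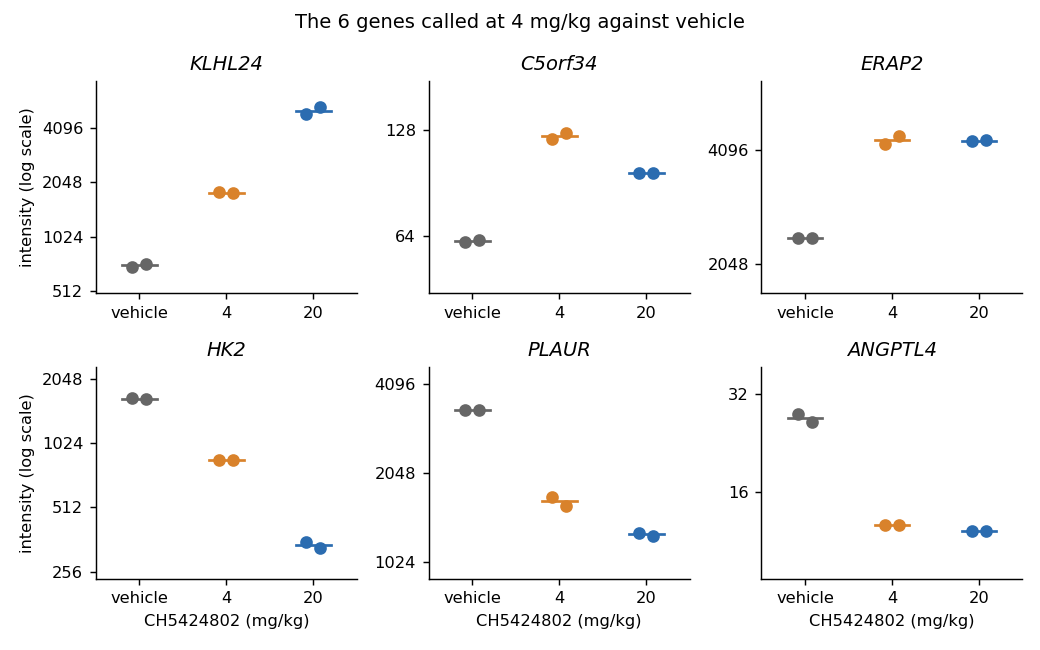
Intensity (log scale) of the 6 genes called at 4 mg/kg against vehicle, by dose of CH5424802 in mg/kg; points are arrays (2 a group) and lines are group means of log2 values. KLHL24 climbs and HK2 descends in dose order, whereas ERAP2 and ANGPTL4 are at about the same level at 4 and 20 mg/kg.

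The calls depended on single arrays. Leaving out vehicle replicate 2, 4 mg/kg replicate 2 or either 20 mg/kg array left no gene called (limma; 1351, 1719 and, for each 20 mg/kg array, 1281 genes at an unadjusted p under 0.05). Leaving out 4 mg/kg replicate 1 or vehicle replicate 1 gave 156 and 475, with 5 and 6 of the 6 genes kept. In addition, 2671 of the tested genes (26.0%) had identical values (within 1e-06 log2) on both arrays of the vehicle or the 4 mg/kg group, as ERAP2, HK2 and ANGPTL4 did. Removing the 531 genes tied in all 3 groups left 0 called.

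By agreement of arrays, 461 genes (4.49%) were higher and 70 (0.682%) lower at 4 mg/kg, so 86.8% of the separated genes were higher. With each array centred on its median the split was 352 higher and 136 lower, 72.1% higher, and the median of all genes moved by -0.10. With quantile normalization it was 417 and 110, 79.1% higher. With 1 array fewer the criterion is easier to meet: the counts were 1167 and 151 without 4 mg/kg replicate 1, 523 and 348 without replicate 2, 1065 and 403 without vehicle replicate 1 and 564 and 102 without replicate 2.

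The higher and the lower genes differed in how well their other probe sets followed. Of 262 higher genes with 2 or more probe sets, 113 (43.1%) had all of them changed in the same direction, beside 1806 of 4117 (43.9%) over all such tested genes. Of 26 lower genes, 23 (88.5%) did. The median change of the other probe sets was 0.06 for the higher genes, whose chosen sets had a median of 1.0, and -0.59 for the lower genes, whose chosen sets had a median of -0.87. The vehicle arrays also differed in these genes. In the higher genes vehicle replicate 2 was below replicate 1 in 414 of 461 (89.8%), beside 37.5% of all tested genes. The lower genes went the other way, with vehicle replicate 2 above replicate 1 in 59 of 70 (84.3%), beside 47.0% of all tested genes. The 18S control was also highest on vehicle replicate 2, and its part in this was not tested.

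**Figure D2:**
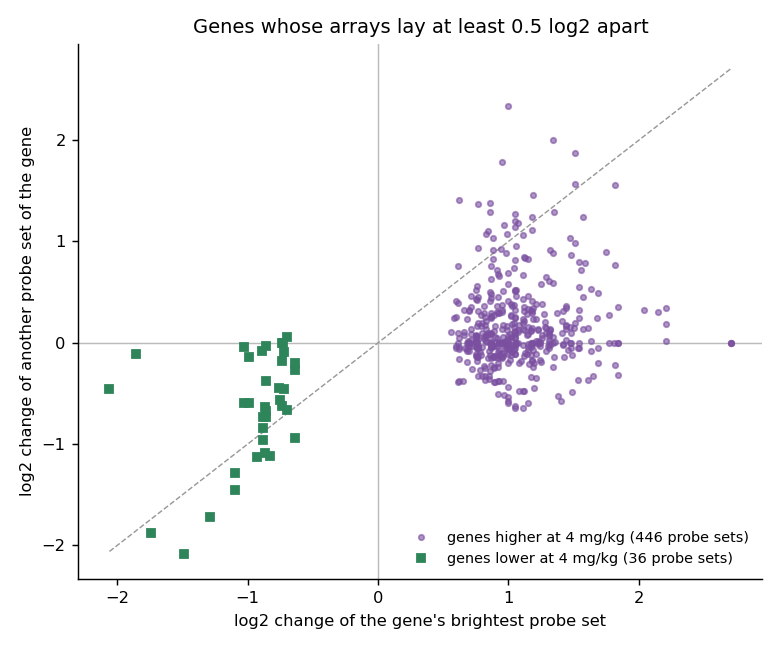
Log2 change (4 mg/kg minus vehicle) of every other probe set of a gene against that of its brightest one, for genes whose arrays lay at least 0.5 log2 apart; the dashed line marks equal change. The 36 probe sets of lower genes have a median of -0.59. The 446 of higher genes have a median of 0.06 but spread widely, such as -0.64 for a set of KLF7 and 2.34 for one of FAR1.

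When every probe set of a gene had to separate the arrays in the same direction, 46 genes were higher (1.12% of the 4117 with 2 or more probe sets) and 16 lower (0.389%). Without 4 mg/kg replicate 1 these were 280 and 21, without its replicate 2 they were 62 and 78, without vehicle replicate 1 they were 160 and 79 and without its replicate 2 they were 79 and 24. None of these was past the threshold, so their values are descriptions. Among the lower genes, CHI3L1, a secreted chitinase-like glycoprotein, read 2610 and 2854 with vehicle and 809 and 821 at 4 mg/kg, and its probe sets changed by -1.74 and -1.88. NNMT, which methylates nicotinamide, read 2599 and 3499 with vehicle and 1146 and 1000 at 4 mg/kg, with changes of -1.49 and -2.09. ST3GAL1, a sialyltransferase, had the most negative change of the 16, at -2.06, but its vehicle arrays were themselves far apart, at 936 and 2722. The lower genes also included ICAM1, an adhesion receptor for leukocytes, at -0.88, -0.84 and -0.73 over its probe sets, and HTR3A, a serotonin-gated ion channel subunit, at -0.87 and -0.63. IGFBP3, which binds insulin-like growth factors, stood at -0.87 and -1.09, yet at 20 mg/kg its brightest probe set was at 0.18. STC1, a secreted glycoprotein hormone, read 384 and 380 with vehicle and 216 on both 4 mg/kg arrays.

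Of the 46 higher genes, SOX2, a transcription factor of airway progenitors, read 801 and 587 with vehicle, 2148 and 2258 at 4 mg/kg, then 3504 and 3957 at 20 mg/kg. Its probe sets changed by 1.68 and 0.24 at the low dose. TOP2A, the topoisomerase of dividing cells, read 852 and 698 with vehicle and 2402 and 2794 at 4 mg/kg, with changes of 1.75 and 0.90. LYPLA1, which removes palmitate from proteins, stood at 1.51 and 0.99. N4BP2 had the most positive change of the 46, at 2.15, from 44.5 and 29.4 to 165 and 157, but its other probe set changed by 0.30. EEA1, an early endosome tether, and DMXL1 both stood at 1.44 on their brightest sets, with 0.18 and 0.34 on the others of EEA1 and 0.36 on that of DMXL1. MANEA, MBTD1 and GTF2H3 lay between 1.51 and 1.59.

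Hypoxia response genes were lower at 4 mg/kg in most members. Of 24 tested members, 1 was called lower (ANGPTL4) and none higher. In 20 of 24 the 4 mg/kg arrays lay below both vehicle arrays, beside 14.8% of all tested genes, and in 11 (45.8%) by at least 0.5 log2, beside 0.682%. The median change was -0.59, beside 0.00 for all tested genes, and it was -0.58 against either vehicle array alone. At an unadjusted p under 0.05, 16 of the 24 were lower, beside 4.76% of all tested genes.

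SLC2A3, the glucose transporter GLUT3, read 41.4 and 47 with vehicle and 13.8 and 14.2 at 4 mg/kg, a change of -1.66 (SE 0.07) that narrowly missed the threshold (limma, adjusted p = 0.0538). ADM, the vasodilator peptide adrenomedullin, read 900 and 978 with vehicle and 335 and 397 at 4 mg/kg (-1.36, SE 0.10; limma, adjusted p = 0.0851). BHLHE40, a transcriptional repressor that also belongs to the circadian clock, read 4524 and 5651 with vehicle and 2011 and 2133 at 4 mg/kg, and its probe sets changed by -1.29 and -1.72. In none of these genes did the arrays of the groups overlap.

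LOX, which cross-links collagen, changed by -1.10 on its brightest probe set and by -1.45 and -1.29 on the others. DDIT4, an inhibitor of mTORC1, stood at -0.91, EGLN3, a prolyl hydroxylase that marks HIF for destruction, at -0.88 and STC2, a secreted glycoprotein, at -0.75. The mitophagy receptors BNIP3 and BNIP3L were at -0.53 and -0.43, but their other probe sets went apart, at -0.89 for BNIP3 and 0.33 for BNIP3L. VEGFA, the angiogenic growth factor, depended on the probe set: the brightest changed by 0.01 and its others by -0.93, -0.77 and -1.08.

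At 20 mg/kg the hypoxia list had a median of -0.47 against vehicle with 5 members called lower (2.07% of all genes), and the median difference between the doses was 0.08, with no member called between them (limma; 0.370% of all genes were called between the doses). P4HA1, a collagen prolyl hydroxylase, read 3859 and 3193 with vehicle, 1990 and 2523 at 4 mg/kg, then 4157 and 3211 at 20 mg/kg. LOX read 2259 and 2670, then 1041 and 1258, then 2187 and 1619. For both genes the 20 mg/kg arrays were above the 4 mg/kg arrays, but the difference did not pass the test (limma, adjusted p = 0.305 and 0.294). BHLHE40 and STC2 went on downwards: their 20 mg/kg arrays read 1244 and 1029 for BHLHE40 and 303 and 243 for STC2, below those at 4 mg/kg, with no call between the doses (limma, adjusted p = 0.161 and 0.185).

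Glycolysis genes had a smaller median of -0.27, with HK2 called lower and 14 of 19 members below both vehicle arrays (14.8% of all tested genes). Without vehicle replicate 2 the median was -0.15. SLC2A3, HK2 and ENO2, the neuronal enolase, were at least 0.5 log2 apart, and ENO2 read 1470 and 1978 with vehicle and 754 and 1039 at 4 mg/kg. PFKP, a phosphofructokinase, stood at -0.90 and GPI, the isomerase that follows hexokinase, at -0.60. Several abundant enzymes were nearly level: GAPDH changed by -0.01 (SE 0.04), LDHA by -0.13 (SE 0.08) and ENO1 by -0.13 (SE 0.06). ALDOA, also abundant, changed by -0.27 (SE 0.10), with -0.40 and -0.16 on its other probe sets. SLC2A1, the glucose transporter GLUT1, read 1168 and 1093 with vehicle and 994 and 981 at 4 mg/kg, a change of -0.19 (SE 0.05). The list shares SLC2A3, SLC2A1 and PFKFB3 with the hypoxia list, so the medians are not independent.

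**Figure D3:**
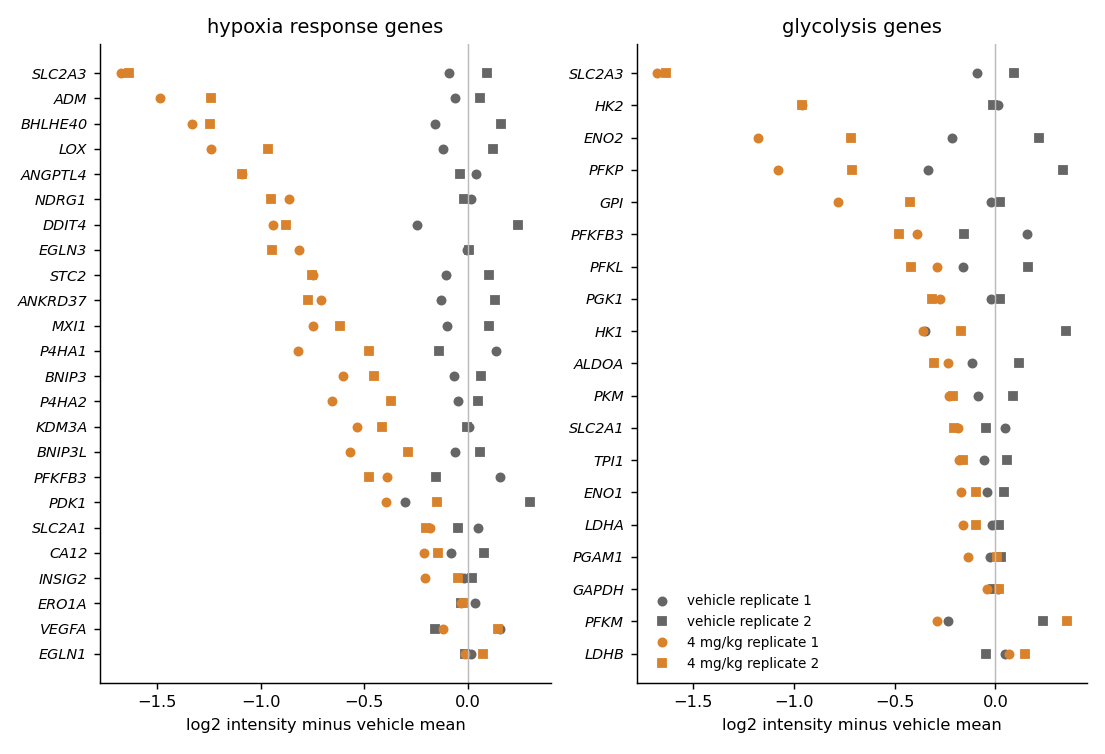
Log2 intensity minus the vehicle mean for each tested hypoxia response gene (24) and glycolysis gene (19) on the 2 vehicle and 2 arrays at 4 mg/kg. In 20 hypoxia genes and 14 glycolysis genes both 4 mg/kg points lie to the left of both vehicle points.

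Acute phase genes were lower in nearly every member. None of 12 was called by limma, but 11 were lower at an unadjusted p under 0.05 (4.76% of all tested genes). The same 11 had both 4 mg/kg arrays below both vehicle arrays (14.8% of all tested genes). The median change was -0.69. HP, haptoglobin, which binds free haemoglobin, read 2293 and 1860 with vehicle, 564 and 653 at 4 mg/kg, then 653 and 632 at 20 mg/kg. Its change of -1.77 (SE 0.14; limma, adjusted p = 0.0892) stood beside -1.69 at the high dose, where it was called.

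FGG, the fibrinogen gamma chain, read 5339 and 5973 with vehicle and 2297 and 3351 at 4 mg/kg, a change of -1.03. C3, the central complement component, read 1379 and 1603 with vehicle and 779 and 953 at 4 mg/kg, a change of -0.79. FGA and FGB, the other fibrinogen chains, stood at -0.76 and -0.85. SERPINA3, antichymotrypsin, was also at -0.79. The member outside this pattern was LCN2, an iron-scavenging lipocalin, at 0.07 (SE 0.06). CP, the copper carrier ceruloplasmin, read 10874 and 10706 with vehicle, 6353 and 7791 at 4 mg/kg, then 11328 and 10334 at 20 mg/kg. Its 20 mg/kg arrays were close to those of vehicle, although the difference between the doses did not pass the test (0.62; limma, adjusted p = 0.176).

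STAT3 targets shared several of these genes and had a median of -0.38, but it was -0.21 against vehicle replicate 1 and -0.28 against replicate 2, and -0.10 without probe sets marked as cross-hybridising. No member was called by limma at 4 mg/kg. At an unadjusted p under 0.05, 8 of 22 were lower (4.76% of all tested genes) and 2 higher (12.2%). SOCS3, the feedback inhibitor of JAK kinases, read 543 and 975 with vehicle and 147 and 271 at 4 mg/kg, a change of -1.86 (SE 0.46; limma, adjusted p = 0.21). Its other probe set changed by -0.11. LIFR, a receptor of the interleukin-6 family, went against the list at 1.82, from 223 and 85.6 with vehicle to 436 and 550. Its other probe sets changed by 1.56, -0.22 and 0.77. The mRNA of STAT3 itself changed by -0.08 (SE 0.11), and that of its target PIM1, a survival kinase, by -0.02 (SE 0.12). IL6, on the list of inflammatory cytokines, read 132 and 97.1 with vehicle, 60.5 and 47.9 at 4 mg/kg and 13.3 on both 20 mg/kg arrays. That list did not fall as a whole, with a median of -0.08. In 5 of its 17 tested members the 4 mg/kg arrays lay below both vehicle arrays (14.8% of all tested genes). In 4 they lay above (22.8% of all), among them the chemokines CXCL2 at 0.54 and CXCL3 at 0.81.

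MAPK output genes were shifted less at 4 mg/kg than at 20 mg/kg. None of 17 was called by limma at the low dose, but in 9 both 4 mg/kg arrays lay below both vehicle arrays (14.8% of all tested genes) and 6 were lower at an unadjusted p under 0.05 (4.76% of all). The median change was -0.26, or -0.45 without vehicle replicate 2. At 20 mg/kg the median was -1.90 with 13 called lower (2.07% of all genes), and the median difference between the doses was -1.77.

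DUSP6, the phosphatase that switches off ERK, read 13346 and 12806 with vehicle, 11041 and 8490 at 4 mg/kg, then 312 and 279 at 20 mg/kg. Its change at 4 mg/kg was -0.43 (SE 0.15; limma, adjusted p = 0.298), and it fell by 5.04 from 4 to 20 mg/kg (limma, adjusted p = 0.0211). CCND1, cyclin D1, read 3515 and 4014, then 3194 and 3186, then 250 and 403. In both genes the 4 mg/kg arrays lay below vehicle and the 20 mg/kg arrays far below those. The size at 4 mg/kg depended on the probe set: the others of DUSP6 changed by -0.25 and -0.99, the latter from 2239 and 2957 with vehicle to 1317 and 1269, and the other of CCND1 by -0.37.

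IER3, an early response gene that limits cell death, read 3304 and 3503 with vehicle, 1728 and 1853 at 4 mg/kg, then 256 and 292 at 20 mg/kg. It changed by -0.93 (SE 0.09; limma, adjusted p = 0.114) at the low dose and fell by 2.71 between the doses (limma, adjusted p = 0.0211). MYC, the growth-promoting transcription factor, read 919 and 1180 with vehicle, 528 on both 4 mg/kg arrays, and 167 and 187 at 20 mg/kg. IER3 and MYC were the 2 list members at least 0.5 log2 apart at 4 mg/kg (11.8%, beside 0.682% of all tested genes).

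ETV5, an ETS factor induced by ERK, changed by -0.49 (SE 0.06) at 4 mg/kg, with 0.01 and -0.39 on its other probe sets, and fell by 2.23 between the doses (limma, adjusted p = 0.0211). The Sprouty genes, feedback inhibitors of receptor signalling, were mixed: SPRY4 stood at -0.59 (SE 0.19), SPRY1 at -0.14 (SE 0.08) and SPRY2 at 0.46 (SE 0.38). SPRED1, a related inhibitor, was at 0.52 (SE 0.23) at 4 mg/kg and at -2.87 at 20 mg/kg. PHLDA1, a pleckstrin domain protein, was at -0.26 (SE 0.19) on its brightest probe set and at -0.69, -1.36, -0.26 and -0.17 on the others. EGR1 stood at -0.22 (SE 0.18), with 0.05 and -0.03 on its others, and DUSP4 at -0.14 (SE 0.19), with 0.21 on its other. DUSP6, IER3, ETV5 and SPRY1 were the list members called lower between the doses, beside 0.243% of all genes.

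**Figure D4:**
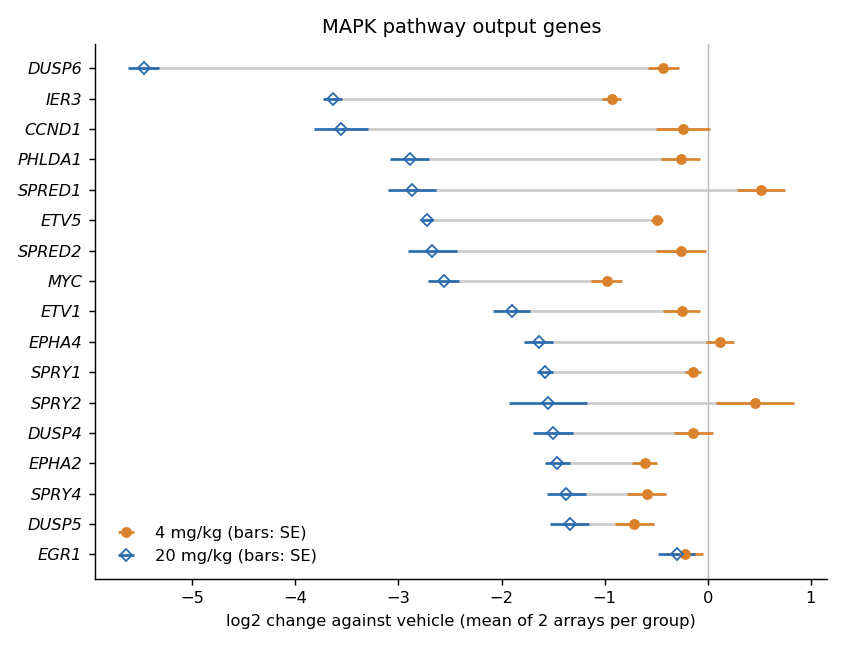
Log2 change against vehicle of 17 MAPK pathway output genes at 4 mg/kg (filled) and 20 mg/kg (open), group means of 2 arrays with the SE of each difference from limma; both doses share the vehicle arrays. The medians are -0.26 and -1.90, and DUSP6 moves from -0.43 to -5.47.

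Immediate early genes had a median of -0.23 and no call at 4 mg/kg. At an unadjusted p under 0.05, 4 of 16 were lower (4.76% of all tested genes). Against vehicle replicates 1 and 2 alone the median was -0.08 and -0.39. MAFF, a small MAF factor, read 262 and 339 with vehicle, 143 and 147 at 4 mg/kg, then 32.5 and 33.7 at 20 mg/kg, and it fell between the doses (limma, adjusted p = 0.0462).

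FOXO targets had a median of 0.16 at 4 mg/kg and 0.73 at 20 mg/kg, but -0.04 at 4 mg/kg when each gene was read by its next brightest probe set. None was called by limma at the low dose. At an unadjusted p under 0.05, 4 of 18 were higher (12.2% of all tested genes) and 1 lower (4.76%). SESN3, a sestrin that restrains mTORC1, read 1095 and 998 with vehicle and 2607 and 2333 at 4 mg/kg (1.24, SE 0.12; limma, adjusted p = 0.12). Its other probe sets changed by -0.03 and 0.00. CDKN1B, the CDK inhibitor p27, read 3040 and 2635 with vehicle, 5158 and 6225 at 4 mg/kg, then 9526 and 10703 at 20 mg/kg, in dose order. BCL2L11, which encodes the pro-death protein BIM, read 843 and 810, then 839 and 1094, then 2776 and 2722, so its 4 mg/kg arrays overlapped vehicle. FBXO32, the ubiquitin ligase atrogin-1, likewise overlapped vehicle on its brightest probe set at 526 and 697 against 503 and 585, and reached 2172 and 1830 at 20 mg/kg. Its other probe sets changed by 0.68, 0.01 and 0.00 at 4 mg/kg. The first of these read 59.4 and 77 with vehicle and 85.5 and 137 at 4 mg/kg, without overlap.

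The mRNA of the inhibited kinase was near its vehicle level. ALK, by a probe set whose place relative to the fusion point was not examined, was at 488 and 448 with vehicle and 448 and 545 at 4 mg/kg (0.08, SE 0.12). EML4 changed by 0.19 (SE 0.11).

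Mitosis genes were mostly higher, and more so on 1 of the 4 mg/kg arrays. None of 26 was called by limma, and 11 were higher at an unadjusted p under 0.05 (12.2% of all tested genes). In 19 the 4 mg/kg arrays lay above both vehicle arrays, beside 22.8% of all tested genes. The median change was 0.57, but 0.22 on replicate 1 and 0.90 on replicate 2, which was also the brightest array, and 0.28 with the next brightest probe sets. In 7 members (26.9%, beside 4.49%) the arrays were at least 0.5 log2 apart. In 11 of 12 with 2 or more probe sets all had the same direction, beside 43.9% of all such tested genes. Every probe set separated the arrays upwards, by the rule above, in 3 of the 12, beside 1.12% of all such genes. Next to TOP2A, CDK1, the kinase that starts mitosis, read 881 and 604 with vehicle and 1846 and 1710 at 4 mg/kg (1.28, SE 0.23). Its other probe sets changed by 0.21 and 0.16, with 4 mg/kg arrays that overlapped vehicle. ASPM, a spindle pole protein, stood at 1.51 with 1.57 and 0.20 on its other sets. MAD2L1, a spindle checkpoint protein, stood at 1.61 with 0.15 on its other set. MKI67, the proliferation marker, changed by 0.05 (SE 0.24) and PLK1, a mitotic kinase, by 0.09 (SE 0.43).

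DNA replication genes had a median of 0.26, which was 0.05 on replicate 1 and 0.45 on replicate 2, and 0.09 with the next brightest probe sets. None of 21 was called by limma, 3 were higher at an unadjusted p under 0.05 (12.2% of all tested genes) and 1 was at least 0.5 log2 apart (4.49% of all), so both counts were near the background. CCNE2, cyclin E2, read 324 and 169 with vehicle and 649 and 828 at 4 mg/kg (1.65, SE 0.43), yet its other probe set changed by -0.33. At 20 mg/kg the replication list had a median of -0.20 and the mitosis list 0.25.

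**Figure D5:**
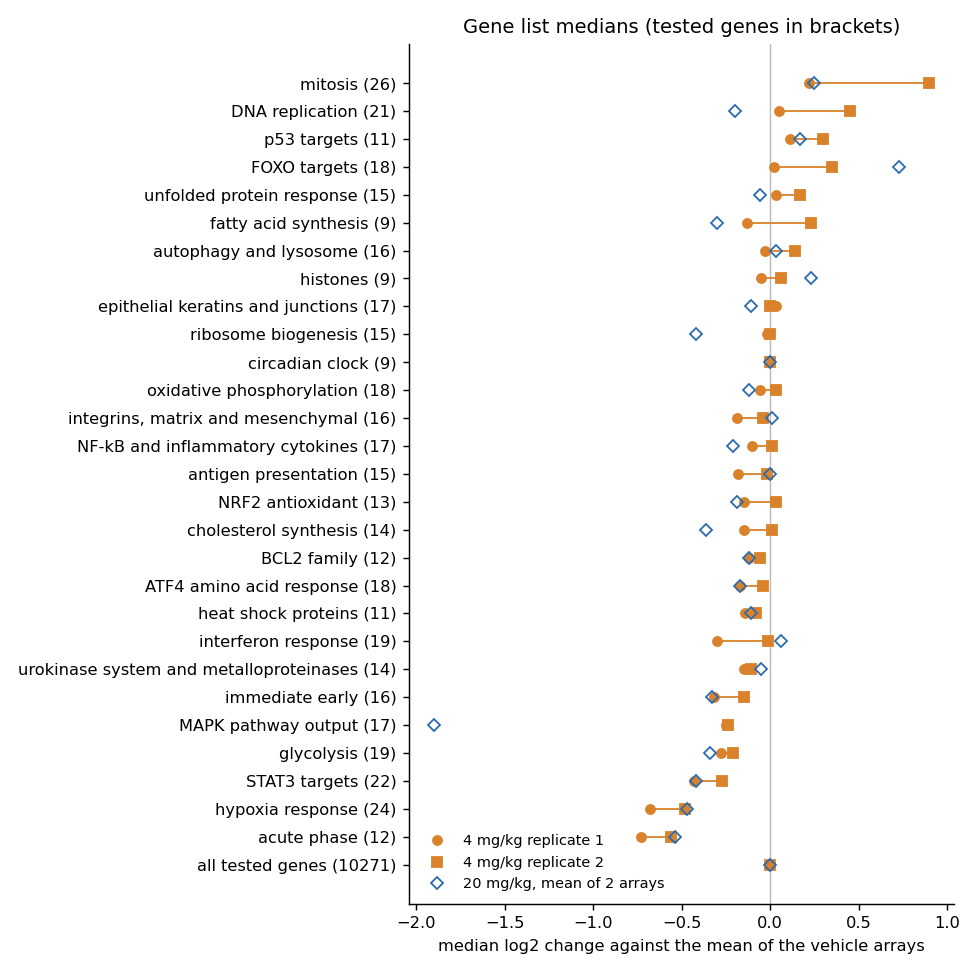
Median log2 change against the mean of the vehicle arrays for each gene list, on each 4 mg/kg array (filled) and for the mean of the 20 mg/kg arrays (open); the number of tested genes is in brackets. Acute phase and hypoxia response genes lie furthest to the left on both 4 mg/kg arrays, whereas MAPK output reaches -1.90 only at 20 mg/kg and mitosis differs between replicates, at 0.22 and 0.90.

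Several other programmes had medians near that of all genes. Cholesterol synthesis stood at -0.10, oxidative phosphorylation at -0.01, ribosome biogenesis at 0.00, autophagy and lysosome at 0.02 and the unfolded protein response at 0.08, with no member called by limma in any of them. At an unadjusted p under 0.05, which 17.0% of all tested genes had, were 1 of 14, 4 of 18, 4 of 15, 4 of 16 and 8 of 15 members in that order. The 8 of the unfolded protein response were 4 higher and 4 lower. The sign of each of these medians turned, or was 0.00, under at least 1 alternative. The urokinase system and metalloproteinases, where PLAUR was called, had a median of -0.18. In 7 of 14 members the 4 mg/kg arrays lay below both vehicle arrays (14.8% of all tested genes) and in 3 above (22.8%). At an unadjusted p under 0.05, 6 were lower (4.76% of all) and 2 higher (12.2%). MMP13, a collagenase, rose, from 850 and 1107 with vehicle to 2368 and 2209 at 4 mg/kg, then 5566 and 4537 at 20 mg/kg. The p53 targets had a median of 0.17 with no call by limma. At an unadjusted p under 0.05, 2 of 11 were higher and 1 lower. CCDC86, a nucleolar protein, read 253 and 256 with vehicle and 177 and 172 at 4 mg/kg, a change of -0.55 (SE 0.02) just outside the threshold (limma, adjusted p = 0.0538). BAG3, a co-chaperone, read 5495 and 5399, then 4440 and 4276, then 2911 and 2913, and it fell by 0.58 between the doses (limma, adjusted p = 0.0342). The integrin subunits ITGA2 and ITGA6 stood at 1.0 and 0.81, with 0.00 and -0.23 on their other probe sets. EPCAM, the epithelial adhesion molecule, read 13258 and 14899 with vehicle and 20225 and 21716 at 4 mg/kg. In the BCL2 family, BCL2L1, which encodes BCL-XL, was at -0.43 (SE 0.31) on its brightest probe set, with 4 mg/kg arrays that overlapped vehicle. Its others were at -0.74 and -1.23, with both 4 mg/kg arrays below both vehicle arrays.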

How the data were processed

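Total RNA from the tumours was hybridised to human Affymetrix arrays, and the authors deposited 1 intensity per probe set and array. Per the submitters' processing notes the values were made with GCRMA, a background correction and normalization based on probe sequence, in R 2.10.0. The lowest intensity is 4.58 (log2 2.19), which between 39.45% and 40.14% of probe sets took, and precision is limited by the number of arrays. Of 54675 probe sets 41097 had 1 gene, 1801 several and 11777 none in the annotation used. Values were set on the log2 scale, computed here from the deposited intensity, with no further normalization. The fit was limma 3.58.1 in R 4.3.3 (lmFit, eBayes, two-sided, Benjamini-Hochberg over 10271 genes) on all 6 arrays in 3 groups. It was tested on simulated data. These had no tied values, so that test cannot speak for genes with identical values on 2 arrays. With 3 residual degrees of freedom, the spread of each gene was moderated over all genes. The members of the comparison and the gene lists were chosen with earlier results of these data known. Genes were named if they passed the threshold, were among the 10 most positive or 10 most negative changes with agreeing arrays and probe sets, led a described list (up to 4 members), or are known ALK signalling genes. Other list members named beside them, such as VEGFA, P4HA1 and CP, were chosen after their values were seen. Planned counts of promoter motifs were not run, because no human promoter table was used here.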

Additional observations from a re-analysis of the deposited data

How the results depend on the processing

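With 2 arrays a group, the count of called genes depended on the processing. Against 6 called genes (3 higher, 3 lower), 0 were called (0 in each direction) with log2(value + 16), a mean log2 of at least 6, the mean of all probe sets, the next brightest probe set, only the 4 compared arrays, or without the genes tied in all groups. Without a filter on low values 3 were called, 0 higher. Centring arrays on the median gave 766 (517 higher, 249 lower) and quantile normalization 41 (30 higher, 11 lower). Without probe sets marked as cross-hybridising 8 were called, 5 higher and 3 lower. Leaving out 1 array at a time, the count ranged from 0 to 475, that of higher genes from 0 to 230 and that of lower genes from 0 to 245.

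The replicate numbers do not pair the samples: the labels state no pairing, and the deviations of same-numbered arrays correlated at 0.15 between vehicle and 4 mg/kg, -0.12 between vehicle and 20 mg/kg and 0.13 between the doses. With the replicate block, 0 genes were called, 0 higher and 0 lower (1653 at an unadjusted p under 0.05).

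Genes at least 0.5 log2 apart numbered 156 higher and 43 lower when all probe sets were averaged, and 173 and 22 with the next brightest. The lower genes numbered 136 after centring, 110 after quantile normalization and 40 without cross-hybridising probe sets. Leaving out 1 compared array gave 523 to 1167 higher and 102 to 403 lower. Genes with agreeing probe sets then numbered 62 to 280 higher and 21 to 79 lower, and centring gave 47 lower.

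Of the 8 list medians that follow, 7 kept their sign in all settings run. Leaving out 1 compared array, they ranged from -0.68 to -0.48 for hypoxia, -0.31 to -0.15 for glycolysis, -0.73 to -0.56 for acute phase, -0.45 to -0.24 for MAPK output, -0.43 to -0.21 for STAT3 targets, 0.01 to 0.35 for FOXO targets, 0.22 to 0.90 for mitosis and 0.05 to 0.45 for DNA replication. Centring moved glycolysis to -0.36, acute phase to -0.79, MAPK output to -0.35 and STAT3 targets to -0.48. The mean of all probe sets gave -0.41 for hypoxia, -0.53 for acute phase and -0.30 for MAPK output, which quantile normalization also put at -0.30. Without cross-hybridising probe sets acute phase was -0.49 and STAT3 targets -0.10, and without a filter acute phase was -0.57. The next brightest probe set gave 0.28 for mitosis, 0.09 for DNA replication and, with its sign turned, -0.04 for FOXO targets.

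Among named genes the sign turned on the next brightest probe set for ACSL1 (-0.18), BCL2L11 (-0.05), CCNE2 (-0.33), DUSP4 (0.21), EGR1 (0.05), ETV5 (0.01), HSPA4 (0.31), ITGA6 (-0.23), SEL1L (-0.41), SESN3 (-0.03) and TJP1 (-0.48). It turned on the mean of all probe sets for DUSP4 (0.04) and SEL1L (-0.01), without cross-hybridising probe sets for DUSP4 (0.21) and PDIA6 (0.23), and after centring for ALK (-0.02). Without 4 mg/kg replicate 1 it turned for H2BC21 (0.15) and STAT3 (0.06, beside -0.22 without replicate 2), without 4 mg/kg replicate 2 for ALK (-0.06) and FBXO32 (-0.04, beside 0.36 without replicate 1), and without vehicle replicate 2 for BAX (0.33), DUSP4 (0.08), EGR1 (0.03) and PIM1 (0.13), which without vehicle replicate 1 gave -1.25 for BAX, -0.47 for EGR1 and -0.17 for PIM1. The cause was not tested for any of these.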

Other observations

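Several further genes with arrays at least 0.5 log2 apart at 4 mg/kg belong to none of the lists above. They were chosen after their values were seen, none passed the limma threshold, and log2 changes are 4 mg/kg minus vehicle (n = 2 arrays each). PLIN2, which coats lipid droplets, read 1000 and 1011 with vehicle, 279 and 324 at 4 mg/kg, then 304 and 165 at 20 mg/kg, a change of -1.74 (SE 0.33). The squamous antigens SERPINB3 and SERPINB4, near-identical serpins whose probe sets may share signal, changed by -0.89 (SE 0.05) and -1.37 (SE 0.16), but the other probe set of SERPINB3 by -0.08. On the brightest sets, their 4 mg/kg arrays lay close to those at 20 mg/kg, where the changes were -1.24 and -1.66. KRT14, a basal keratin, read 13817 and 19771 with vehicle and 9502 and 9114 at 4 mg/kg.

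VCAN, a matrix proteoglycan, changed by -0.86 on its brightest probe set and by -0.73, -0.03, -0.67 and -0.38 on the others. ID1, an inhibitor of basic helix-loop-helix factors, read 6824 and 8804 with vehicle and 4470 and 4589 at 4 mg/kg. TREM1, a receptor of myeloid cells, read 867 and 1357 with vehicle, 332 and 487 at 4 mg/kg, then 850 and 649 at 20 mg/kg. GOT1, the cytosolic aspartate aminotransferase, and TRPM8, a cold-activated ion channel, changed by -0.64 (SE 0.11) and -0.90 (SE 0.13) at 4 mg/kg, and both fell between the doses, by 1.86 and 2.20 (limma, adjusted p = 0.0421 for both).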
